A study of Homo sapiens with 12 samples.

Results

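Among 2 siRNAs used against NRF2, some transcripts answered to 1 and not to the other, and 5 of them are described gene by gene and line by line. ARPC5 and TMEM64 were listed because they were low with siRNA 28 and not with siRNA 30, and HNRNPA1, ERBIN and COPS8 because they were low with siRNA 30 and not with siRNA 28. These 5 genes were taken from the 57815 listed in each library, and all 5 were among the 11571 genes with enough signal in every line to be tested. Because the values below are the ones by which the genes were chosen, they are given as a description, with no test and no p.

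The cells were 3 established human non-small cell lung cancer (NSCLC) lines, A549 and H2023 (lung adenocarcinoma) and H460 (large cell carcinoma), and all of them, controls included, carry a KEAP1 mutation. In each line 2 libraries were made with control siRNA, 1 with NRF2 siRNA 28 and 1 with NRF2 siRNA 30, and RNA was taken 48 h after transfection. The study handled both NRF2 siRNAs as replicates of 1 knockdown, so a value that belongs to a single siRNA in a single line rests on 1 library. RNA was depleted of rRNA for A549 and selected for polyA for H2023 and H460, so that library protocol and line cannot be told apart between A549 and the other lines, and the study's methods call the control libraries of a line biological duplicates.

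NRF2, encoded by NFE2L2, is a transcription factor that turns on antioxidant and detoxifying genes, and KEAP1 is the adaptor that hands it to a CUL3 ubiquitin ligase for destruction. An siRNA is a short duplex whose guide strand pairs with its target messenger RNA and directs its cleavage, and short stretches of a guide are also known to pair with other messengers, mostly in their 3′ untranslated regions (3′ UTRs), in the manner of a microRNA. The sequences of siRNA 28 and siRNA 30 were not used here, so where each of them pairs with NFE2L2 was not tested.

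Short stretches that 3 of the members share with NFE2L2 are shown first, because the last results group all genes by them. Capitals mark an 8-base run in the coding sequence of NFE2L2 that was picked, as described below, by the difference between the siRNAs over all genes, the same run in CDV3 and COX7C, or, in ARPC5, ERBIN and COPS8, the longest run that the 3′ UTR shares with NFE2L2 and that overlaps the 8 bases. The stretches are in the sense of the messenger, from the GENCODE transcripts, and their bases were identical in GRCh37. Those picked at the low end of siRNA 28 minus siRNA 30 lie in NFE2L2 (chr2:178096329-178096358, minus strand, coding), in ARPC5 (chr1:183596589-183596618, minus strand, 3′ UTR) and in CDV3 (chr3:133307573-133307602, plus strand, 3′ UTR), a gene that was also lowered by siRNA 28 alone.
NFE2L2: tgcaaagctttCAACCAAAaccaccctgaa
ARPC5: aaagaccaaaaCAACCAAAtgccaccgctg
CDV3: caaaataaattCAACCAAActggggtccac
Those picked at the high end lie in NFE2L2 (chr2:178096509-178096538, minus strand, coding), ERBIN (chr5:65375566-65375595, plus strand, 3′ UTR), COPS8 (chr2:238007995-238008024, plus strand, 3′ UTR) and COX7C (chr5:85916523-85916552, plus strand, 3′ UTR), the gene with the largest mean fall among those lowered by siRNA 30 alone.
NFE2L2: cagttgacagtGAACTCATtaaattcagat
ERBIN: aacattaaatGTGAACTCAacacttccaga
COPS8: gaaggagagGACAGTGAACTactacataga
COX7C: ggatcaaactaGAACTCATatgccatacta
The run shared with NFE2L2 was 8 bases long in ARPC5, 9 bases in ERBIN and 11 bases in COPS8. It was 7 bases long in TMEM64, which is not printed. Of 10466 tested genes with a 3′ UTR, 60.6% shared some run of at least 7 bases that overlaps the 8 bases at the low end, and 32.1% one of at least 8 bases. At the high end 15.5% shared one of at least 9 bases and 1.51% one of at least 11 bases, so that a shared run of the length found in ARPC5, TMEM64 or ERBIN was common. A shared run is a match of letters and not a shown site of pairing.

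The targeted gene and the quality of the libraries were as follows. NFE2L2 was at 30.9 to 38.2 FPKM (fragments per kilobase of transcript, scaled to library size) in A549 control libraries, at 5.31 FPKM with siRNA 28 and at 7.84 FPKM with siRNA 30. In H2023 it was at 118 and 120.0 FPKM with control siRNA, 7.74 FPKM with siRNA 28 and 6.80 FPKM with siRNA 30. In H460 it was at 99.5 and 144 FPKM with control siRNA, 6.54 FPKM with siRNA 28 and 12.2 FPKM with siRNA 30. Both siRNAs thus lay below both controls in every line, at -3.42 ± 0.30 (siRNA 28) and -3.05 ± 0.30 (siRNA 30) from control on the scale of log2(FPKM + 1) over the 3 lines (SE from limma, adjusted p = 5.41e-05 and 0.000106), and siRNA 28 differed from siRNA 30 by -0.38 ± 0.35 (adjusted p = 0.606). Of 18 NRF2 target genes, 17 fell with siRNA 28 and 17 with siRNA 30 in limma at an adjusted p under 0.05, beside 7.5% and 10.2% of all tested genes. Between the siRNAs 1 of the 18 was lower and 1 higher with siRNA 28 (background 1.3% and 2.79%). These were FTL, at -1.73 ± 0.28 (limma adjusted p = 0.00753), and SLC7A11, at 0.83 ± 0.16 (adjusted p = 0.0149, and 0.0852 without the H2023 library of siRNA 28). Between 12732 and 13909 genes reached 1 FPKM in a library. The mitochondrial share of summed FPKM was 0.892% to 1.56% for A549 and 8.56% to 26.0% for the other lines, and it was highest with siRNA 30 in each line. The summed level of 5 epithelial markers was 1142 to 9195 FPKM and that of the 8 markers of other cell types that could be read was 1.22 to 114 FPKM, of which ALB in the H2023 library of siRNA 28 made up 109 FPKM. The epithelial sum was higher with both siRNAs than in either control of H2023 and H460. The sum of the other markers was above both controls with both siRNAs in A549 and H460. In H460 it was 24.1 FPKM with siRNA 28 and 26.1 FPKM with siRNA 30, against 4.64 and 8.05 FPKM. With siRNA 30 in H2023 it lay between the controls. The part of either sum in the results was not tested. CDH1 and EPCAM, which define epithelium, were at most at 1.17 and 1.19 FPKM in H460. In bulk RNA, fewer cells of a kind and less RNA per cell cannot be told apart.

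With siRNA 28, ARPC5 fell to between 22.7% and 44.8% of its control mean. ARPC5 (ENSG00000162704.11, GRCh37 chromosome 1, 183589981 to 183604918, minus strand) encodes a subunit of the Arp2/3 complex, which starts branched actin filaments at the cell edge. In A549 it was at 67.2 and 68.8 FPKM with control siRNA, 30.4 FPKM with siRNA 28 and 83.1 FPKM with siRNA 30. In H2023 it was at 103 and 121 FPKM with control siRNA, 28.8 FPKM with siRNA 28 and 133 FPKM with siRNA 30. In H460 the control libraries held 98.9 and 114 FPKM, that of siRNA 28 held 24.2 FPKM and that of siRNA 30 held 152 FPKM. The siRNA 28 library was thus the lowest and the siRNA 30 library the highest in every line, and neither overlapped the controls. On the log2(FPKM + 1) scale ARPC5 differed from the control mean of A549, H2023 and H460 by -1.13, -1.92 and -2.09 with siRNA 28 and by 0.29, 0.25 and 0.51 with siRNA 30. Over the 3 lines the difference was -1.71 ± 0.51 with siRNA 28 and 0.35 ± 0.14 with siRNA 30 (SD, n = 3 lines). The controls of a line lay 0.03 to 0.23 apart on the same scale, less than the distance of either siRNA from their mean.

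With siRNA 28, TMEM64 was at 41.4%, 47.4% and 55.6% of its control mean in A549, H2023 and H460, below the 44.8% of ARPC5 in A549 and above its values in H2023 and H460. TMEM64 (ENSG00000180694.9, chromosome 8) encodes a membrane protein with a VTT domain that is known to bind the calcium pump SERCA2 and to restrain Wnt signalling in bone cells. In A549 it was at 26.2 and 28.5 FPKM with control siRNA, 11.3 FPKM with siRNA 28 and 27.7 FPKM with siRNA 30. In H2023 it was at 19.4 and 20.1 FPKM with control siRNA, 9.37 FPKM with siRNA 28 and 24.8 FPKM with siRNA 30. In H460 it was at 11.0 and 11.2 FPKM with control siRNA, 6.16 FPKM with siRNA 28 and 19.9 FPKM with siRNA 30. The siRNA 28 library was below both controls in every line, whereas the siRNA 30 library lay between the controls in A549 and above both in H2023 and H460. In the same order of lines, the differences were -1.20, -1.0 and -0.75 with siRNA 28 and 0.02, 0.31 and 0.79 with siRNA 30. The fall with siRNA 28 was thus smallest, and the higher value with siRNA 30 largest, in the line where TMEM64 was least abundant with control siRNA. Without the A549 control library numbered 1, the A549 value with siRNA 30 became -0.04.

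HNRNPA1 had the largest fall of the 5 genes, to 27.0%, 17.2% and 8.22% of control with siRNA 30. HNRNPA1 (ENSG00000135486.13, chromosome 12, 54673977 to 54680872, plus strand) encodes an abundant nuclear RNA-binding protein that represses the use of splice sites and takes part in messenger export. In A549 it was at 361 and 367 FPKM with control siRNA, 98 FPKM with siRNA 30 and 321 FPKM with siRNA 28. In H2023 it was at 467 and 568 FPKM with control siRNA, 88.9 FPKM with siRNA 30 and 477 FPKM with siRNA 28. In H460 it was at 1145 and 1410.3 FPKM with control siRNA, 105 FPKM with siRNA 30 and 542 FPKM with siRNA 28. With siRNA 30 the level was nearly the same in all 3 lines, from 88.9 to 105 FPKM, although the control mean rose from 364 FPKM in A549 to 1278 FPKM in H460. The differences were -1.88, -2.52 and -3.58 with siRNA 30 and -0.18, -0.11 and -1.23 with siRNA 28.

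In H460, HNRNPA1 was therefore also low with siRNA 28, at 42.4% of control and below both control libraries. It was at 88.2% in A549, below both controls, and at 92.1% in H2023, between them, so the name of a gene moved by siRNA 30 alone held for HNRNPA1 in A549 and H2023 and not in H460. In H460, 8.72% of tested genes were at or below -1 with siRNA 28, against 1.11% in A549 and 2.99% in H2023. Without the H2023 control library numbered 0 the H2023 value with siRNA 28 became 0.03. HNRNPA1 also has many near-identical copies in the genome, and 76 of them were listed, of which 7 reached 1 FPKM in a library. Reads of HNRNPA1 and these copies can be exchanged by the estimate of abundance. Their summed level was 1.24% to 7.47% of that of HNRNPA1 and copies together. In A549 the copies summed to 23.8 and 25.4 FPKM with control siRNA, 21.1 FPKM with siRNA 28 and 7.91 FPKM with siRNA 30. In H2023 they summed to 11.3 and 12.3 FPKM with control siRNA, 10.1 FPKM with siRNA 28, below both controls where HNRNPA1 lay between them, and 4.81 FPKM with siRNA 30. In H460 they summed to 14.4 and 22.2 FPKM with control siRNA, 12 FPKM with siRNA 28 and 4.61 FPKM with siRNA 30, so both siRNA libraries lay below both controls, as they did for HNRNPA1.

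ERBIN fell by nearly the same amount in each line with siRNA 30, to 36.7%, 33.6% and 40.5% of control. ERBIN (ENSG00000112851.10, chromosome 5, 65178956 to 65378374, plus strand) encodes a scaffold with leucine-rich repeats and a PDZ domain that holds the receptor ERBB2 at the basolateral membrane of epithelia. In A549 it was at 34.6 and 38.4 FPKM with control siRNA, 13.4 FPKM with siRNA 30 and 37.1 FPKM with siRNA 28. In H2023 it was at 22.3 and 25.2 FPKM with control siRNA, 7.98 FPKM with siRNA 30 and 30 FPKM with siRNA 28. In H460 it was at 24.8 and 33.8 FPKM with control siRNA, 11.9 FPKM with siRNA 30 and 37 FPKM with siRNA 28. The siRNA 30 library was below both controls in every line, and the siRNA 28 library was between the controls in A549 and above both in H2023 and H460. The differences were -1.38, -1.46 and -1.22 with siRNA 30 and 0.02, 0.33 and 0.34 with siRNA 28. The ERBIN controls of H460 lay 0.43 apart, the widest gap of any member in any line, wider than the distance of the siRNA 28 value from their mean.

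COPS8 had the steadiest level with control siRNA, 38.3, 38.2 and 38.1 FPKM as the control means of A549, H2023 and H460, and fell to 48.1%, 40.9% and 36.8% of it with siRNA 30. COPS8 (ENSG00000198612.6, chromosome 2, 237994525 to 238009117, plus strand) encodes a subunit of the COP9 signalosome, the enzyme complex that takes NEDD8 off cullins, CUL3 among them. In A549 it was at 37.8 and 38.8 FPKM with control siRNA, 18.4 FPKM with siRNA 30 and 44 FPKM with siRNA 28. In H2023 it was at 35.3 and 41.2 FPKM with control siRNA, 15.6 FPKM with siRNA 30 and 46.3 FPKM with siRNA 28. In H460 it was at 38.0 and 38.3 FPKM with control siRNA, 14.0 FPKM with siRNA 30 and 40.5 FPKM with siRNA 28. The siRNA 30 library was thus the lowest and the siRNA 28 library the highest of the 4 in every line. The differences were -1.02, -1.24 and -1.38 with siRNA 30 and 0.20, 0.27 and 0.08 with siRNA 28. When FPKM was rescaled without mitochondrial transcripts, which also brings every library to the same summed FPKM, the A549 values with siRNA 28 became -0.07 for COPS8 and -0.24 for ERBIN, so no direction is read from them. Summed FPKM was 1159274 in the A549 library of siRNA 28 against 999482 and 925845 in its controls, with a mitochondrial share of 0.892% to 1.56% in that line.

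**Figure D1:**
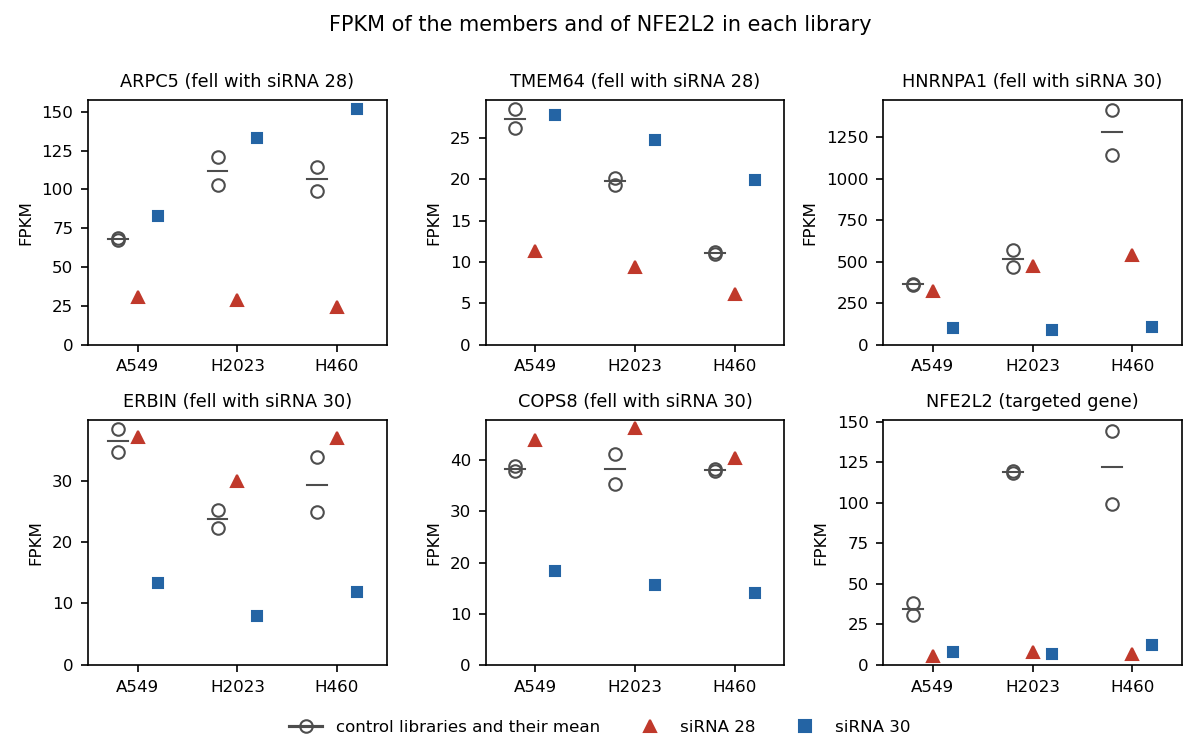
FPKM (y axis, linear, from 0) of the 5 members and of NFE2L2 in each library of A549, H2023 and H460 (x axis); open circles are the 2 control libraries of a line with their mean as a bar, red triangles siRNA 28 and blue squares siRNA 30. ARPC5 and TMEM64 are low with siRNA 28 in every line, HNRNPA1, ERBIN and COPS8 with siRNA 30, HNRNPA1 in H460 with both, and NFE2L2 with both in every line.

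Counted over 5 genes in 3 lines, the siRNA for which a gene was listed lay below both control libraries in 15 of 15 values and at or below -1 in 14 of 15. Below both controls were 33.2%, 39.4% and 45.1% of all tested genes with siRNA 28 in the 3 lines, and 41%, 40% and 45.1% with siRNA 30, or 16.5% and 18.1% in every line at once. At or below -1 in every line were 0.674% with siRNA 28 and 0.89% with siRNA 30. The value just inside that limit was -1.0 (TMEM64 in H2023) and the value outside it was -0.75 (TMEM64 in H460). Line by line, 1.11%, 2.99% and 8.72% of all tested genes reached -1 with siRNA 28, and 1.5%, 3.66% and 11.6% with siRNA 30, from A549 to H460. The other siRNA lay above both controls in 10 of the 15 values, between them in 3 and below them in 2, both of the latter HNRNPA1, and it was within 0.5 of the control mean in 12 of them. The exceptions were HNRNPA1 in H460 on the low side and ARPC5 and TMEM64 in H460 on the high side. The share of all genes above both controls was 45% and 35.6% in A549, 41.4% and 43% in H2023, and 40.1% and 40.9% in H460 for siRNA 28 and siRNA 30. Since the other siRNA's values were used to choose the genes, nothing is read from these counts.

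TMEM64 overlaps 3 annotated genes on the opposite strand, ERBIN 2 on the opposite and 1 on the same strand, and HNRNPA1 1 lncRNA on the same strand. Libraries were stranded, but whether the counting used strand was not given in the sources used here, so reads of such partners cannot be fully told apart. By level, HNRNPA1 was the most abundant member in the control libraries of every line and ARPC5 the second, and TMEM64 was the least abundant. ERBIN and COPS8 overlapped in the A549 controls, at 34.6 to 38.4 and 37.8 to 38.8 FPKM, while COPS8 was above ERBIN in H2023 and H460 without overlap. These are levels per transcript length within a line. The authors' mean normalised count of a member, a measure of the reads behind it, was lowest for TMEM64 in H460 at 269.8 and highest for HNRNPA1 in H460 at 14657.

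The difference between the siRNAs places the members near the ends of all genes. The mean over the 3 lines of siRNA 28 minus siRNA 30 was -2.06 ± 0.60 for ARPC5 and -1.36 ± 0.17 for TMEM64, 2.155 ± 0.40 for HNRNPA1, 1.58 ± 0.19 for ERBIN and 1.40 ± 0.16 for COPS8 (SD, n = 3 lines). Among 11571 genes, ARPC5 was the 2nd and TMEM64 the 23rd from the low end, and HNRNPA1 was the 5th, ERBIN the 35th and COPS8 the 67th from the high end. As a background, 150 genes (1.3%) were lower and 323 (2.79%) higher with siRNA 28 than with siRNA 30 in limma at an adjusted p under 0.05, and the choice of the members used this contrast. Scaled to the 75th percentile, the counts were 244 lower and 284 higher, and rescaled without mitochondrial transcripts 183 and 152. Leaving out 1 library took them to as few as 28 lower (without the H460 library of siRNA 28) and 93 higher (without the H2023 library of siRNA 28). They also fell by more than 1.5 times without the H2023 library of siRNA 30 (47 and 123) or the H460 library of siRNA 30 (73 and 172), and the lower genes alone without the A549 control library numbered 0 (82) or 1 (92) or the H2023 control library numbered 1 (95). Without the line H2023, 0 and 0 passed.

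**Figure D2:**
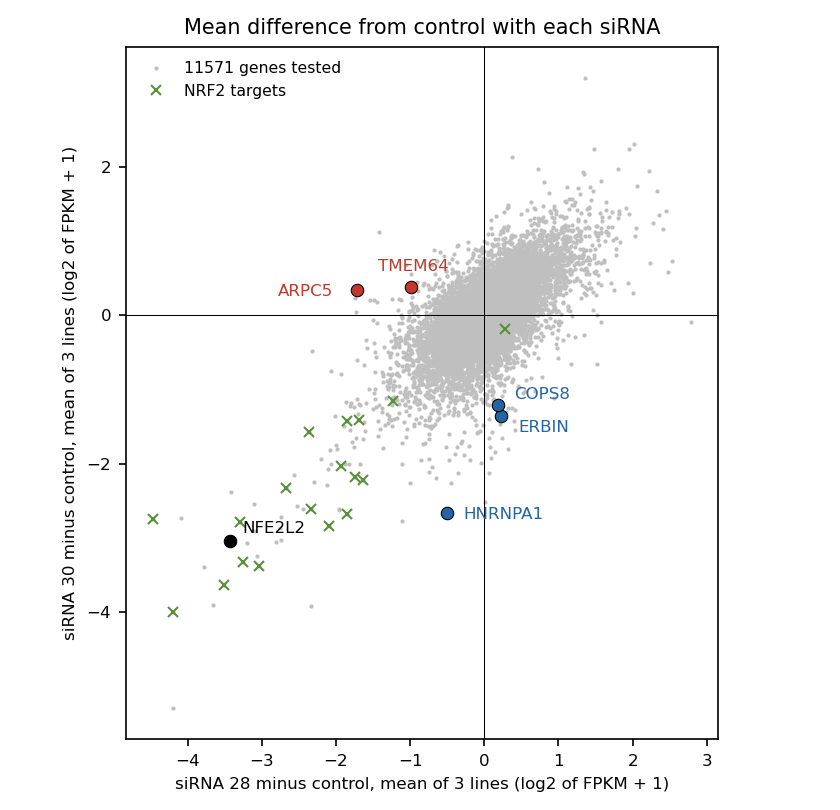
Mean difference from control over 3 lines on the log2(FPKM + 1) scale with siRNA 28 (x axis) and siRNA 30 (y axis) for the 11571 genes tested (grey points), with 18 NRF2 targets (green crosses), NFE2L2 (black) and the members (red for siRNA 28, blue for siRNA 30). NFE2L2 and 17 of the targets are low on both axes, whereas ARPC5 lies at -1.71 on the x axis and 0.35 on the y axis, and HNRNPA1 at -0.51 and -2.66.

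How often such a pattern occurred was counted over all tested genes, as a fall of at least 1 log2 unit with one siRNA in every line and a value within 0.5 of control with the other in every line. For siRNA 28 the count was 2 genes (0.0173%), and for siRNA 30 it was 16 genes (0.138%). ERBIN and COPS8 were among the 16. ARPC5 and TMEM64 missed the pattern by values above 0.5 with siRNA 30 in H460, TMEM64 also by its fall of 0.75 with siRNA 28 there, and HNRNPA1 by its low value with siRNA 28 in H460. These are small counts: for siRNA 28 it was 5 with a pseudocount of 0.1 and 6 when FPKM was rescaled without mitochondrial transcripts, and for siRNA 30 it was 9 with that rescaling. In the opposite direction 1 gene, TMC6, rose with siRNA 28 alone (0.00864%) and 0 with siRNA 30 alone (0%).

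The genes of siRNA 28 were TMEM35B, a small membrane protein gene, and CDV3. CDV3 was at 78.5 and 80.0 FPKM with control siRNA, 28.6 FPKM with siRNA 28 and 76.3 FPKM with siRNA 30 in A549, and at 75.5 and 82.4, 17.4 and 101 FPKM in H460. It was also the third gene in likeness to ARPC5. The 8 genes with the largest mean falls with siRNA 30 were COX7C, a subunit of cytochrome c oxidase, TXNDC5, a disulphide isomerase of the endoplasmic reticulum, DPY19L1, KIF3B, a kinesin-2 motor, IMPA1, which makes free inositol, SCPEP1, CHMP5, a part of the ESCRT-III machinery, and NEK7, a mitotic kinase. Their mean differences with siRNA 30 ran from -2.52 for COX7C to -1.65 for NEK7, beside -1.35 for ERBIN and -1.21 for COPS8. COX7C was at 89.4 and 106 FPKM in H2023 controls, 10.1 FPKM with siRNA 30 and 85.8 FPKM with siRNA 28, and differed from control by -1.61, -3.15 and -2.81 in A549, H2023 and H460 with siRNA 30, beside -1.88, -2.52 and -3.58 for HNRNPA1. The plot of genes lowered by one siRNA alone shows that the line of the smallest fall with siRNA 30 differed between genes. It was A549 for COX7C, TXNDC5 and HNRNPA1, and H460 for ERBIN, NEK7 and SCPEP1.

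Genes whose values followed those of a member were sought by Pearson's r over the 12 libraries, each taken as its difference from the control mean of its line. ARPC5 was most like HADHA (r = 0.98), a subunit of the mitochondrial enzyme of fatty acid oxidation, then SLC30A7 (0.97), a zinc transporter, and CDV3 (0.96). HADHA was at 83.1 and 86.3 FPKM with control siRNA, 45.4 FPKM with siRNA 28 and 88.4 FPKM with siRNA 30 in A549, and it averaged -1.44 with siRNA 28 and 0.19 with siRNA 30 over the lines. TMEM64 was most like RBM4B (0.97), which also averaged 0.44 above control with siRNA 30 and -0.81 with siRNA 28. LRRC28 came next (0.94). HNRNPA1 was most like MYG1 (0.99), which averaged -1.11 with siRNA 30 and -0.14 with siRNA 28, and PDE12 was also among its nearest 3 (0.99). ERBIN was most like MCM3AP (0.98), UBE2R2 (0.98) and CHMP5 (0.97), and COPS8 most like DLD, IMPA1 and SMARCAD1 (0.99 each). DLD, a subunit of the mitochondrial dehydrogenases of keto acids, averaged -1.34 with siRNA 30 and 0.20 with siRNA 28, against -1.21 and 0.18 for COPS8. These coefficients rest on 6 control libraries near 0 and 6 others, all of which the compared genes share, and were the highest of 11571 genes by construction.

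Genes of the members' complexes and families are given as counts, each beside the share of all tested genes that passed in that direction: 7.5% lower and 9.39% higher with siRNA 28, and 10.2% lower and 8.5% higher with siRNA 30. Of the 9 other Arp2/3 subunit genes, 0 fell and 0 rose with siRNA 28 in limma (adjusted p under 0.05, against 7.5% and 9.39% of all tested genes), and their median difference was 0.22 against 0.01 over all genes. Scaled to the 75th percentile, 1 of the 9 passed as higher. At an unadjusted p under 0.05, 0 were lower and 4 higher. The value of ARPC5L, the gene for the alternative form of the ARPC5 subunit, was 51.6 FPKM with siRNA 28 in H460 against 47.3 FPKM in both controls, and 31.0 FPKM with siRNA 30. Over the 3 lines it was at 0.17 ± 0.11 with siRNA 28 (SE, limma adjusted p = 0.288). With siRNA 30 it was at -0.37 ± 0.11 (adjusted p = 0.0400), a call lost in 11 of 12 fits that left out 1 library. With siRNA 30, under which ARPC5 was above its controls, 3 of the 9 fell and 1 rose (background 10.2% and 8.5%), or 2 and 1 without mitochondrial transcripts. Without the H2023 or the H460 library of siRNA 30, 1 fell and 0 rose, and 1 fell without the H460 control library numbered 1. ACTR2, the Arp2 subunit, fell by 0.87 ± 0.14 (SE, limma adjusted p = 0.00223, lower in 3 of 3 lines) and differed between siRNA 28 and siRNA 30 by 0.93 ± 0.16 (adjusted p = 0.00909), a difference that reached an adjusted p of 0.0504 without the H2023 library of siRNA 30. Of 15 activators and partners of the complex, 1 fell and 3 rose with siRNA 28 (background 7.5% and 9.39%), and 0 fell and 3 rose with siRNA 30 (10.2% and 8.5%). The 3 that rose with siRNA 28 became 0 without its H2023 or its H460 library. The 3 that rose with siRNA 30 became 0 without its H2023 library and 1 without its H460 library or the H460 control library numbered 1. The 1 that fell, WASF2, a member of the WAVE complex that activates Arp2/3, was at -1.12 ± 0.21 with siRNA 28 (adjusted p = 0.00573, and 0.056 without the H460 library of siRNA 28) and below the siRNA 30 value by 1.32 ± 0.24 (adjusted p = 0.0123, and 0.0723 without the H2023 library of siRNA 28).

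Of the 9 other subunit genes of the COP9 signalosome, 1 fell and 0 rose with siRNA 30, a share of the list near the 10.2% of all tested genes that fell. With siRNA 28, 2 fell (background 7.5%) and 0 rose; the 2 ranged from 0 to 3 over libraries left out in turn, at 0 without the H2023 or the H460 library of siRNA 28. Between the siRNAs 0 differed (background 1.3% lower and 2.79% higher), where 1 was lower and 2 higher with siRNA 28 at an unadjusted p under 0.05. COPS5, which encodes the catalytic subunit, fell with siRNA 30 by 0.55 ± 0.12 (adjusted p = 0.0113, and 0.063 without the H460 library of siRNA 30, the 1 being also lost without the H2023 library of siRNA 30), and COPS2 fell with siRNA 28 by 0.53 ± 0.12 (adjusted p = 0.0116, and 0.0902 without the H460 library of siRNA 28). Of 16 genes for cullins, NEDD8 and the enzymes and cofactors that attach or remove it, 7 fell with siRNA 30 (background 10.2%) and 0 rose, at a median of -0.24 against -0.01 over all genes, and 0 fell or rose with siRNA 28, where 2 were lower and 1 higher at an unadjusted p under 0.05. The 7 became 3 when FPKM was rescaled without mitochondrial transcripts and to an equal sum. They became 1 without the H460 library of siRNA 30, 3 without its H2023 library and 4 without the H460 control library numbered 1. The 7 were NEDD8 itself, NAE1 and UBA3, which form its activating enzyme, UBE2M and UBE2F, its conjugating enzymes, CAND1, an exchange factor of cullin ligases, and a single cullin, CUL3. CUL3 lost its call in 10 of 12 fits that each left out 1 library. NEDD8 and NAE1 lost theirs in 4, UBA3 and CAND1 in 2 and UBE2M in 1. Between the siRNAs 3 of the 16, NEDD8, UBA3 and UBE2F, were higher with siRNA 28 (background 2.79%) and 0 lower (1.3%). NAE1 was at -0.47 with siRNA 28 and differed between the siRNAs by 0.16 (limma adjusted p = 0.711). Of the 7, UBE2F had the smallest p with siRNA 30, at -0.70 ± 0.13 (adjusted p = 0.00611). It was higher with siRNA 28 than with siRNA 30 by 1.01 ± 0.15 (adjusted p = 0.00559), and leaving out 1 library gave an adjusted p of at most 0.0382. UBE2F was at 24.6 and 28 FPKM in H2023 controls, 12.8 FPKM with siRNA 30 and 30.2 FPKM with siRNA 28, the order of libraries seen for COPS8.

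**Figure D3:**
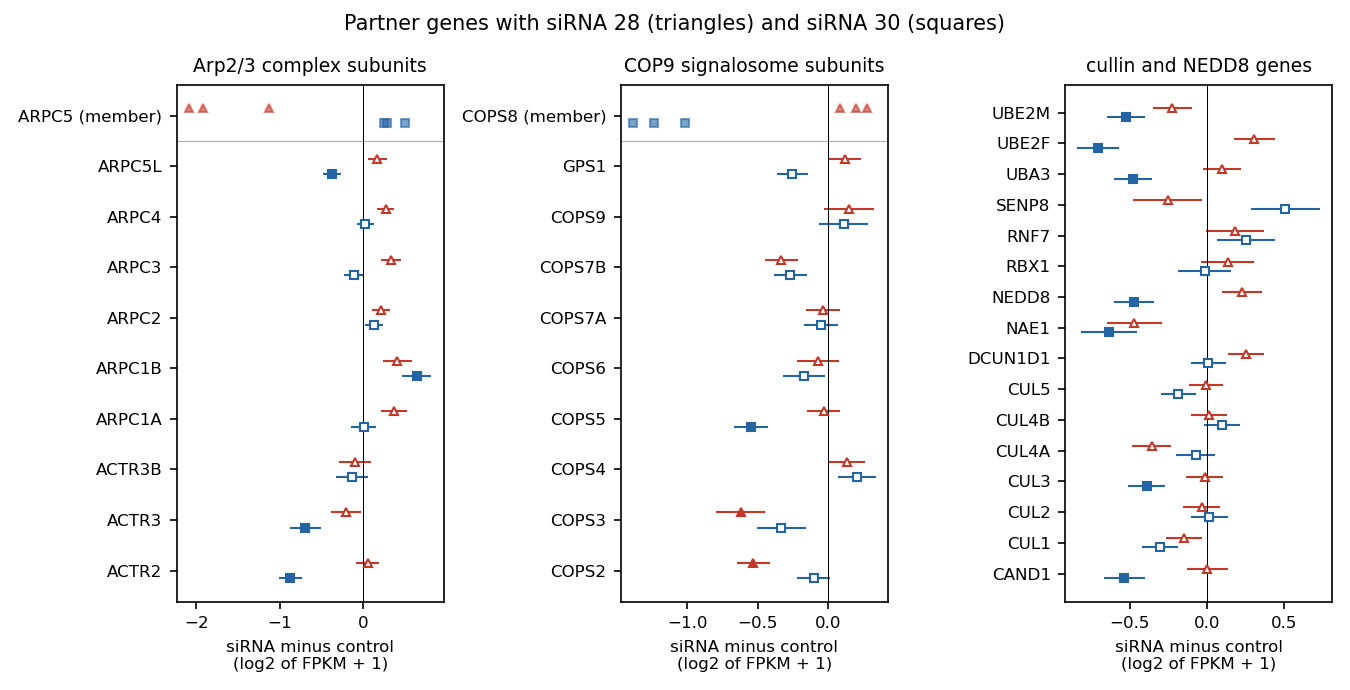
Difference from control on the log2(FPKM + 1) scale (x axis) with siRNA 28 (red triangles) and siRNA 30 (blue squares) for partner genes (y axis) of ARPC5 and COPS8; points with bars are limma estimates with SE, filled where the adjusted p was under 0.05, and the members are shown as 1 point per line. No tested subunit is filled for siRNA 28 in the Arp2/3 panel, whereas 7 of 16 cullin and NEDD8 genes are filled for siRNA 30, all below 0. Without the H460 library of siRNA 30 the 7 are 1, and between the siRNAs 3 of the 16 differed in limma.

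Of 21 other hnRNP genes, 0 fell and 0 rose with siRNA 30 (limma, background 10.2% and 8.5%), 7 being lower at an unadjusted p under 0.05. Their differences, as means over the 3 lines, lay between -0.51 and 0.24. HNRNPA1 itself was at -2.66 ± 0.86 (SD, n = 3 lines), the value by which it was chosen, so it is not compared with them. With siRNA 28, 2 fell (background 7.5%) and 0 rose. The 2 ranged from 0 to 2 over libraries left out in turn, at 0 without the H2023 or the H460 library of siRNA 28. HNRNPR was at -0.59 ± 0.15 (adjusted p = 0.0202, and 0.156 without the H460 library of siRNA 28). The median of the 21 was -0.37 with siRNA 28 and -0.29 with siRNA 30, and 0 of them differed between the siRNAs at an adjusted p under 0.05, with 3 lower and 1 higher at an unadjusted p under 0.05. Scaled to the 75th percentile, 1 of the 21 was lower with siRNA 28 than with siRNA 30. Of 6 genes listed for the nuclear import of HNRNPA1 or for splice choice, 2 fell with each siRNA (background 7.5% and 10.2%). When the H460 library of the siRNA was left out, 0 fell with siRNA 28 and 1 with siRNA 30. Without the H460 library of siRNA 30, 4 fell with siRNA 28. SRPK1, which the study lists among its NRF2 downstream effectors, was 1 of the 2 with each siRNA, at -0.86 and -0.90. PCBP2, a poly(C)-binding protein, fell with siRNA 30 by 0.78 ± 0.13 (adjusted p = 0.00362, at most 0.0268 when 1 library was left out).

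Of 14 tested relatives, receptors and partners of ERBIN, 0 fell and 4 rose with siRNA 30 in limma (background 10.2% and 8.5%). The 4 became 0 without the H460 library of siRNA 30, and 2 without its H2023 library, the H2023 control library numbered 1 or either H460 control library, and they were 5 with 75th percentile scaling. With siRNA 28, 1 fell and 2 rose (background 7.5% and 9.39%), and the 2 became 0 without the H460 library of siRNA 28 and 1 without the control library numbered 1 of A549 or of H460. Between the siRNAs 0 differed in limma, 1 was lower with siRNA 28 with 75th percentile scaling, and 2 were lower at an unadjusted p under 0.05. ERBB2, the receptor that ERBIN holds at the membrane, rose with siRNA 30 by 0.79 ± 0.18 (adjusted p = 0.0143, and 0.104 without the H460 library of siRNA 30). SCRIB, a polarity scaffold of the same LAP family as ERBIN, fell with siRNA 28 by 0.78 ± 0.14 (adjusted p = 0.00428, at most 0.0401 when 1 library was left out).

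Of 5 genes for VTT-domain proteins and TMEM64 partners, 0 fell and 2 rose with siRNA 28 (background 7.5% and 9.39%), and 2 fell and 0 rose with siRNA 30 (background 10.2% and 8.5%). The list is too short for its share to be read against the background. Rescaled without mitochondrial transcripts, 0 rose with siRNA 28 and 1 fell with siRNA 30. The 2 that rose became 0 without either control library of H2023, the control library numbered 1 of A549 or of H460, or the H2023 or H460 library of siRNA 28, and 1 without the A549 control library numbered 0. The 2 that fell became 0 without the H460 and 1 without the H2023 library of siRNA 30. TMEM41A, which encodes a VTT-domain protein, was at 14.1 and 15.1 FPKM in H2023 controls, 21.1 FPKM with siRNA 28 and 10.3 FPKM with siRNA 30. It was higher with siRNA 28 than with siRNA 30 by 1.13 ± 0.17 (adjusted p = 0.00502, at most 0.0343 when 1 library was left out), the opposite order to TMEM64. ATP2A2, which encodes the pump SERCA2, fell with siRNA 30 by 0.92 ± 0.19 (adjusted p = 0.00897, and 0.0593 without the H460 library of siRNA 30), where TMEM64 was between or above its controls. Of 7 tested interferon response genes, 3 rose with siRNA 30 (background 8.5%) and 1 with siRNA 28 (background 9.39%). The 3 became 1 without the H460 library of siRNA 30, and ranged from 1 to 4 over all libraries left out in turn. The 1 became 0 on leaving out any of the siRNA 28 libraries, the A549 library of siRNA 30 or the control libraries numbered 1 of A549 and 0 of H2023 and H460. RIGI, a sensor of double-stranded RNA, rose with siRNA 30 by 0.91 ± 0.13 (adjusted p = 0.00116, at most 0.00996 when 1 library was left out), and 0 of the 7 differed between the siRNAs at an adjusted p under 0.05, with 2 lower with siRNA 28 at an unadjusted p under 0.05.

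All tested genes were then grouped by the content of their 3′ UTRs, a grouping made after the members' values had been seen. Every 7-base word of the canonical NFE2L2 transcript (2446 bases, coding from 152 to 1969) was looked up, in the sense strand only, in the 3′ UTRs of 10466 tested genes, and 2116 words held by at least 100 genes were ordered by the median of siRNA 28 minus siRNA 30 over their genes. The lowest of all were AACCAAA (1937 genes, 18.5%, median -0.10) and CAACCAA (939 genes, 8.97%, median -0.09). The highest were AACTCAT (1260 genes, 12%, median 0.13) and GAACTCA (1084 genes, 10.4%, median 0.12). The median of all 10466 genes was 0.03. The words of each pair overlap by all but 1 base, and they join into the runs in capitals in the NFE2L2 stretches shown first, 1 starting at base 1135 and the other at base 955 of the transcript. Because the words were picked by these medians, the medians are a description. The lowest words are called the siRNA 28 pair and the highest the siRNA 30 pair only after the end of the order at which they stood, and no link to the sequence of either siRNA was tested.

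Among the members, ARPC5 held AACCAAA 2 times, CAACCAA 2 times and neither word of the siRNA 30 pair. TMEM64 held CAACCAA 1 time and none of the other words. HNRNPA1 held AACTCAT and GAACTCA 1 time each and AACCAAA 1 time. ERBIN held AACTCAT 1 time and GAACTCA 3 times, and AACCAAA and CAACCAA 2 times each, so that words of both pairs stood in a gene low with siRNA 30. COPS8 held 0 of the 4 words, although it shared the 11 bases printed above, which end inside the run of NFE2L2. Of the 16 genes lowered by siRNA 30 alone, 11 held a word of the siRNA 30 pair, beside 18.0% of all genes, and both genes lowered by siRNA 28 alone held a word of the siRNA 28 pair, beside 22.1%. The words were picked by the contrast that also picked these genes, so nothing is read from the shares.

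The medians by line follow from how the words were picked and are given as a description, with nothing read from their direction. The 2311 genes with a word of the siRNA 28 pair had median differences from control of -0.01, -0.06 and -0.18 in the 3 lines with siRNA 28, against 0.07, 0.03 and -0.02 for the 8155 genes with neither. With siRNA 30 the same 2311 genes were at -0.02, 0.02 and 0.00, against -0.02, 0.02 and -0.07. The 1882 genes with a word of the siRNA 30 pair were at -0.10, -0.14 and -0.16 with siRNA 30 in the 3 lines, against 0.00, 0.05 and -0.03 for the 8584 genes with neither. With siRNA 28 those 1882 genes were at 0.03, 0.01 and -0.07, against 0.06, 0.02 and -0.05. The difference between the siRNAs was wider for genes with the 8-base run, at -0.15 (411 genes, siRNA 28 run) and 0.17 (326 genes, siRNA 30 run), and for genes with the first word at least 2 times, at -0.14 (477 genes) and 0.21 (192 genes). The 3′ UTRs of these genes were also longer, so nothing is read from the widths. Their medians were 3275 and 3691.5 bases with the run and 4633 and 5224 with the repeated word, against 3023 and 3223 for either word.

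Genes with a word had longer 3′ UTRs, with a median of 3023 bases against 1008 for the siRNA 28 pair and 3223 against 1068 for the siRNA 30 pair. Among genes with a 3′ UTR over 2000 bases, the median of siRNA 28 minus siRNA 30 was -0.06 with and 0.06 without a word of the siRNA 28 pair, and 0.09 with and -0.02 without a word of the siRNA 30 pair. Length was not held equal by this limit, since within it the genes with a word still had the longer 3′ UTRs, at a median of 3948 bases against 3133 and of 4182.5 against 3127, and the words were picked on the same contrast. The part of base composition was not tested.

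**Figure D4:**
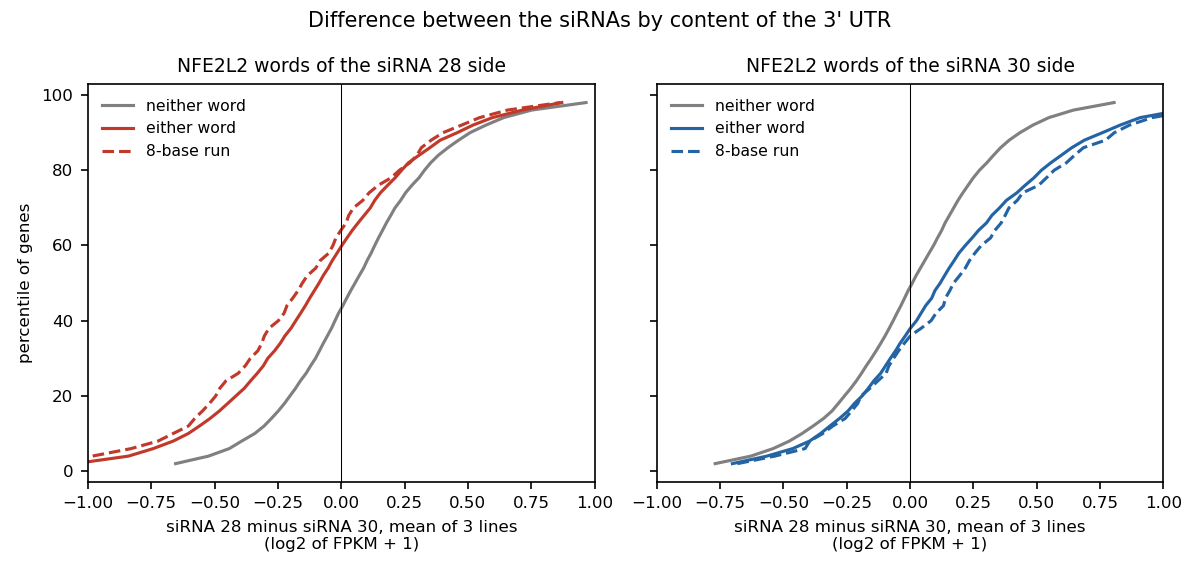
Percentile of genes (y axis) against the difference of siRNA 28 minus siRNA 30 on the log2(FPKM + 1) scale, mean of 3 lines (x axis, from -1 to 1), for genes whose 3′ UTR holds neither word of a pair (grey), either word (solid colour) or the 8-base run (dashed), for the siRNA 28 pair (left panel) and the siRNA 30 pair (right panel). The coloured curves lie to the left of grey over most of the left panel and to the right of grey in the right panel, with medians of -0.09 and 0.12 for either word.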

How the data were processed

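FPKM values were deposited library by library, and from a further deposited table of each line only the mean normalised count, a signal value, was used. The deposited tables also hold fold changes and p-values of the authors' own comparisons, which were left out. The study's methods name TopHat and Cufflinks with hg19, whereas the submitters' processing notes name STAR 2.5.3a, Cuffnorm, HTSeq and DESeq2 with GRCh37.p13, so the route to FPKM is not settled. Depth per library is not given by FPKM, and its precision is limited by 1 library per siRNA and line.

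Because the libraries were given as FPKM and not as counts, tests used limma 3.58.1 (R 4.3.3) with a variance trend on log2(FPKM + 1). The model held line and siRNA over 12 libraries, for 11571 genes at 1 FPKM or above in at least 2 of 4 libraries of every line, with Benjamini-Hochberg adjustment over all of them. Differences on this scale understate changes of genes with low values, and p-values measure the spread between these libraries, of which the methods call the controls biological duplicates. Values under 1e-06 (12710) were set to 0. Symbols were matched by identifier without version for 96.1% of genes. Sequences came from GENCODE transcripts lifted to GRCh37. The fit was checked on simulated data. Tables and plots were made with pandas 2.3.3 and matplotlib 3.10.9 under Python 3.11.15.

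The 5 members and all gene lists were chosen with earlier results of these data known. Named genes were the members, up to 4 test-passing genes per list by smallest p, the 3 genes most like each member, up to 8 genes lowered by one siRNA alone by mean fall, annotated copies and NFE2L2. Some genes and a sequence that fall under this rule are not reported here. TMC6, NEDD8, NAE1 and CUL3 were named after their values were seen. Samples were grouped by the line and siRNA in the labels. Alternatives were another pseudocount, other filters, no trend, other scalings, a replicate block, a model of 9 group means and leaving out libraries or lines. The limit on 3′ UTR length was added after seeing the data.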

Additional observations from a re-analysis of the deposited data

How the results depend on the processing

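The falls of the members kept their direction in every alternative run. Of their 15 values, 12 were at or below -1 without mitochondrial transcripts, where the smallest fall was -0.55, 13 with 75th percentile scaling and 13 to 14 when 1 control library was left out. Of 150 recomputed member values 30 moved by more than 1 SD of the controls of the line. Leaving out 1 control library could not do this, because the control mean then shifts by less than that SD. The 30 thus came only from another pseudocount, 75th percentile scaling or rescaling without mitochondrial transcripts. As a share of all 150 they understate how often values moved under those settings. Of the 150, 5 changed sign, all with the other siRNA and all within 0.24 of 0. The counts over all genes also moved, and the cause was not tested unless fewer samples or other genes entered. In the order siRNA 28 against control (868 lower, 1086 higher), siRNA 30 against control (1184, 984) and siRNA 28 against siRNA 30 (150, 323), the counts were 169 and 147, 295 and 108, 13 and 64 with no filter, and 2018 and 2161, 2270 and 2028, 725 and 1072 with 9 group means. Without A549 the counts that moved were 637 higher, 782 lower, and 41 and 86. Without H2023 they were 156 and 190, 233 and 68, and 0 and 0, and without H460 458 and 644, 607 and 361, and 59 and 158. Without 1 library they ranged from 222 to 1208 lower and 235 to 1467 higher, from 438 to 1246 and 174 to 1070, and from 28 to 168 and 93 to 383. The lowest of each pair came without the H460 library of the siRNA tested (siRNA 28 for the 28), except that the 93 came without the H2023 library of siRNA 28.

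Rescaling without mitochondrial transcripts gave 765 lower and 954 higher for siRNA 30 (1030 and 1270 with 75th percentile scaling), gave 152 higher for siRNA 28 against siRNA 30, and moved the median of all genes to -0.19 (A549, siRNA 28), 0.13 (H2023, siRNA 30) and 0.17 (H460, siRNA 28). The contrast of the siRNAs gave 244 lower with 75th percentile scaling, 93 with a filter on any 2 of 12 libraries, and 13 lower and 48 higher in the 6 NRF2 siRNA libraries alone. Genes lowered by one siRNA alone numbered 5 for siRNA 28 with a pseudocount of 0.1, 6 and 9 for siRNA 28 and siRNA 30 without mitochondrial transcripts, and 2 to 3 and 13 to 17 when 1 control library was left out.

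Whether the numbers 0 and 1 in the labels pair libraries across groups is not known, since no label says that a number marks a shared culture or day. Deviations of control and siRNA libraries with the same number correlated at 0.06 in A549 and, above 0.1, at 0.29 in H2023 and 0.14 in H460, and the number is the siRNA itself within NRF2 siRNA libraries. With a replicate block the counts were 148 and 103, 190 and 60, and 0 and 0, the last with 924 genes at an unadjusted p under 0.05 in limma (1504 without H2023, where 0 passed too). Of the gene lists, 15 NRF2 targets were lower with each siRNA under the block, 1 of the Arp2/3 activators and partners was lower with siRNA 28, 1 of the ERBIN list and 1 interferon response gene were higher with siRNA 30, and 0 genes passed in any other list, cullin and NEDD8 genes included (7 lower with siRNA 30 at an unadjusted p under 0.05).

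Of the calls of named list genes, 465 recomputed values no longer passed the threshold and 1663 kept their side, with the same direction throughout. With 1 library per siRNA and line, values in a single line have no replicate.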
